A study of Mus musculus with 16 samples.

Results

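The shelterin genes are the 7 mouse genes that encode the subunits of the telomere-protecting complex: Terf1, Terf2, Terf2ip, Tinf2, Acd, Pot1a and Pot1b. They were taken by symbol from the deposited table of 24411 genes, and all 7 are in it. Terf2, which encodes TRF2, is the gene deleted in this study. Muscle stem cells (MuSCs) were sorted from 4 groups of mice on a C57BL/6 background, with 4 libraries each. The groups are control (genotype labelled Wildtype) and TRF2 knockout (TRF2 MuSC-cKO), each taken uninjured or 3 days post-injury (3 DPI) with 10 µl of notexin, a snake toxin that damages myofibers. The knockout carries floxed TRF2 alleles and a tamoxifen-inducible Cre expressed from Pax7, so deletion is limited to cells of the Pax7 lineage and needs tamoxifen, which the mice received from young adult age. The sources used here do not give whether the controls carried Cre or received tamoxifen for these libraries, and which exons are floxed was not used here. Because Terf2 was not lower in them, the knockout group at 3 DPI is called the knockout-labelled 3 DPI libraries throughout.

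Shelterin is a protein complex that covers the TTAGGG repeats at chromosome ends and keeps them from being handled as DNA breaks. TRF1 and TRF2 bind the double-stranded repeat, RAP1 (from Terf2ip) rides on TRF2, TIN2 (from Tinf2) ties both to TPP1 (from Acd), and TPP1 holds POT1 on the single-stranded overhang. Mice have a pair of POT1 genes, Pot1a and Pot1b, where humans have a single gene. MuSCs are the PAX7-positive cells that lie quiescent on muscle fibers and divide after injury to rebuild them.

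Library totals were 620506 to 1351130 estimated counts. Uninjured TRF2 MuSC-cKO libraries held 665776 to 976984 and uninjured control libraries 909474 to 1351130. Replicate 3 of the knockout-labelled 3 DPI libraries stood apart with a count in 15387 genes, against at least 19996 in the others, and the log2 fold changes of the shelterin genes at 3 DPI are given with and without it. All 12 MuSC markers checked were detected in every group. Their summed level was 5025 to 7112 CPM (counts scaled to library size) in uninjured control libraries, 2897 to 4039 in uninjured TRF2 MuSC-cKO, 1264 to 1880.5 in control at 3 DPI and 578 to 799 in the knockout-labelled 3 DPI libraries. The summed level of 12 macrophage and other immune markers was 95.6 to 135 CPM in uninjured control, 147 to 205 CPM in uninjured TRF2 MuSC-cKO, 5544 to 7308 CPM (median 7022) in control at 3 DPI and 2246 to 6674 CPM (median 4823) in the knockout-labelled 3 DPI libraries, although CD45- and CD11b-positive cells were excluded in the sort. The medians of Ptprc (CD45) in control were 12.6 CPM uninjured and 218 CPM at 3 DPI. The sort also excluded cells positive for CD31 (Pecam1, among the endothelial markers) or Sca1 (Ly6a, among the fibroadipogenic markers).

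In GRCm38, Terf2 lies on the minus strand of chromosome 8 from 107069400 to 107096547. Its promoter and that of Pot1b are shown because they belong to the members with the smallest p-values in uninjured MuSCs. Both are from RefSeq (GRCm38.p6), are 300 bases long and run 5′ to 3′ on the gene's minus strand, at chr8:107096496-107096795 for Terf2 and chr17:55712587-55712886 for Pot1b. Capitals mark every match, on either strand, to TTAGGG (the telomeric repeat), TTTCGCG (an E2F core), CCGGAAG (an ETS core), CACGTG (an E-box), CCAAT and GGGCGG (a GC box).
Terf2: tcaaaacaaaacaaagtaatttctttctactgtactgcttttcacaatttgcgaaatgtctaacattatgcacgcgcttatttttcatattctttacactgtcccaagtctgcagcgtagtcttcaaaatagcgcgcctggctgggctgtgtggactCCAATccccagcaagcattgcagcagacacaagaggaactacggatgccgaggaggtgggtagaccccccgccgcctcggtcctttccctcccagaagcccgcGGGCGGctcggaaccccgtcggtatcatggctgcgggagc
Pot1b: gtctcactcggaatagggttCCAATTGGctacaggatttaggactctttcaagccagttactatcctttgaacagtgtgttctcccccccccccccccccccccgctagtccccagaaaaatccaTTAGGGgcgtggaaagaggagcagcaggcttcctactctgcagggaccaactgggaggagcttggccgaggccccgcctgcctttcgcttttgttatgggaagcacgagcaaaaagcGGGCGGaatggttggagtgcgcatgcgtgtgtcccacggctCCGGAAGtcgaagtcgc
The Terf2 window holds a CCAAT and a GGGCGG, which 37.4% and 35.7% of all 32851 promoters of this length also hold. The Pot1b window holds the same pair of motifs and also CCGGAAG (8.86% of all promoters) and TTAGGG (10.6%). Its pair of CCAAT matches lie on opposite strands and share letters. RefSeq entries were found for 6 of the 7 members, and none for Terf1 in this table. Among the others, the Tinf2 window holds TTTCGCG (0.849% of all promoters) and CCGGAAG, the Terf2ip window CCGGAAG and GGGCGG, the Pot1a window GGGCGG, and the Acd window CCAAT. No window of the 6 holds CACGTG (7.15%).

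Counts of the shelterin genes were low in these libraries, which limits how precisely any of them could be measured. The estimated count of a member in a library ran from 0 to 105, and the sum over the 16 libraries from 221 for Pot1a to 835 for Terf2. To compare genes with each other, the deposited length-scaled counts were expressed as CPM, a level per unit of transcript length. On this per-length scale Terf2 had the highest median over the 16 libraries at 56.0 (range 23.9 to 87.5). It was followed by Acd at 30.9 (4.32 to 84.9), Terf2ip at 24.2 (7.68 to 40.3), Tinf2 at 23.9 (13.1 to 87.9), Terf1 at 23.2 (0 to 49.9), Pot1b at 20.3 (2.11 to 41.3) and Pot1a at 12.5 (2.34 to 19.3). Terf2 was the highest shelterin gene in 10 of 16 libraries and Pot1a the lowest in 9. The per-length level of Terf2 was above that of Pot1a and of Terf2ip in all 16 libraries and above that of Acd in 13. The ranges of each adjacent pair among Acd, Terf2ip, Tinf2 and Terf1 overlapped in every group. Compared within libraries, Acd was above Terf2ip in every uninjured control library and Tinf2 above Terf1 in every control library at 3 DPI. Otherwise the order of a pair differed between libraries of the same group. Overlap of ranges alone therefore does not show that these levels were equal. Terf1 and Pot1b overlapped in 3 groups, but in uninjured control Terf1 (30.3 to 49.9) lay above Pot1b (8.08 to 18.8). The order differed between groups: the group median of Pot1b was 16.7 in uninjured control and 20.2 in control at 3 DPI, above that of Pot1a alone, but 36.0 in uninjured TRF2 MuSC-cKO and 28.0 in the knockout-labelled 3 DPI libraries, where it came next after Terf2 (56.9 and 66.9). For genes of the meiotic telomere complex, which act in germ cells, the group medians of Terb1, Terb2 and Majin were 4.53 to 18.5 on the same scale, a range that covers the group medians of Pot1a (9.59 to 16.7).

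**Figure D1:**
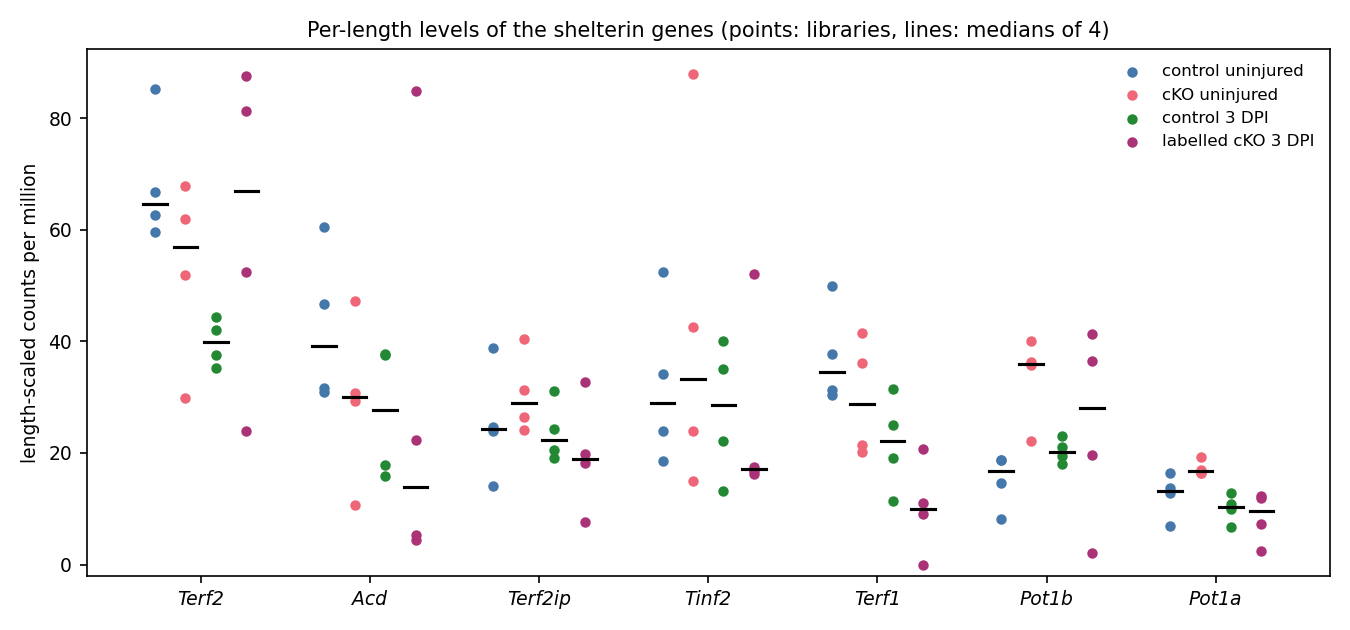
Length-scaled estimated counts as CPM (y axis) of each shelterin gene (x axis, ordered by the median over 16 libraries) in each library (points) of the 4 groups, with lines at the medians of 4. Terf2 has the highest median (56.0) and Pot1a the lowest (12.5), and the points of the genes between them overlap.

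Genotypes and injury states were compared with edgeR's quasi-likelihood test on the counts, adjusted over all genes tested. To be called, a gene needed an adjusted p under 0.02 together with a fold over 1.5. All 7 members passed the filter on low counts in every comparison, and none was called in any of the 5. In uninjured MuSCs, where 3.22% of all genes were called between the genotypes, 0 of 7 members were called, 2 of 7 (Terf2 and Pot1b) had an unadjusted p under 0.05 (19.5% of all genes), and the same 2 did not overlap between genotypes (12%). At 3 DPI, where 0% of all genes were called between genotypes, 0 of 7 members had an unadjusted p under 0.05 (9.36%) and 0 of 7 did not overlap (8.2%). With injury in control MuSCs, where 20.2% of all genes were called, 0 of 7 members were called, 2 of 7 (Terf2 and Terf1) had an unadjusted p under 0.05 (32.5%) and 1 of 7 (Terf2) did not overlap (24.3%). Across the knockout-labelled groups (uninjured TRF2 MuSC-cKO against the knockout-labelled 3 DPI libraries), where 4.04% of all genes were called, 0 of 7 members had an unadjusted p under 0.05 (16.4%) and 1 of 7 (Pot1a) did not overlap (14%). In the interaction, the difference of the genotype effect between 3 DPI and uninjured MuSCs, 0.0178% of all genes were called, 0 of 7 members were called and 1 of 7 (Terf2) had an unadjusted p under 0.05 (5.74%). Limma called 0 of 7 members in 4 of the 5 comparisons and 1 of 7, Terf2, with injury in control MuSCs. DESeq2 also called 1 of 7, Terf2, with injury in control MuSCs. It gave no adjusted p to 3 of 7 members between uninjured genotypes, 7 of 7 between genotypes at 3 DPI, 1 of 7 across the knockout-labelled groups and 5 of 7 in the interaction, so these could not be called by it, and it called none of the others. The median log2 fold change of the 7 members was 0.08 in uninjured MuSCs (0.06 over all genes) and -0.27 at 3 DPI (0.00144 over all genes) for the genotype. It was -0.33 (0.07 over all genes) with injury in control MuSCs and -0.64 (0.00705 over all genes) across the knockout-labelled groups. These medians moved with single libraries: leaving out each in turn gave -0.509 to 0.146 between uninjured genotypes (-0.509 without knockout replicate 3), -0.356 to -0.0451 at 3 DPI (-0.0451 without knockout-labelled replicate 3), -0.541 to -0.219 with injury in control and -0.766 to -0.346 across the knockout-labelled groups. The comparisons share groups, so their values are not independent of each other. The shares of all genes called depended on single libraries, on the tool and on the table. Between uninjured genotypes 452 genes were called, against 259, 265 and 275 without control replicates 1, 2 and 4, 295 without knockout replicate 1, 623 by DESeq2, 82 with all 16 libraries in 1 fit and 17 on the length-scaled table. Between genotypes at 3 DPI, 0 genes were called, against 16 without knockout-labelled replicate 3, 1 by limma and 22 by DESeq2, while 9.36% had an unadjusted p under 0.05. With injury across the knockout-labelled groups 589 were called, against 1316 without knockout-labelled replicate 3, 365 without knockout-labelled replicate 1 and 363, 367 and 358 without uninjured replicates 2, 3 and 4. The same comparison gave 1251 by limma, 1204 with all 16 libraries in 1 fit, 993 by DESeq2, 364 with the replicate block and 283 on the length-scaled table. In injury of control MuSCs, 3104 were called, against 1595 with all 16 libraries in 1 fit. In the interaction 3 were called, against 13 without knockout-labelled replicate 3, 24 by DESeq2, 79 by limma, 8 with at least 10 counts in every library, 1 with the replicate block, 1 on the length-scaled table and 1 or 2 without each of the other 15 libraries. No member with an adjusted p was called in these fits.

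**Figure D2:**
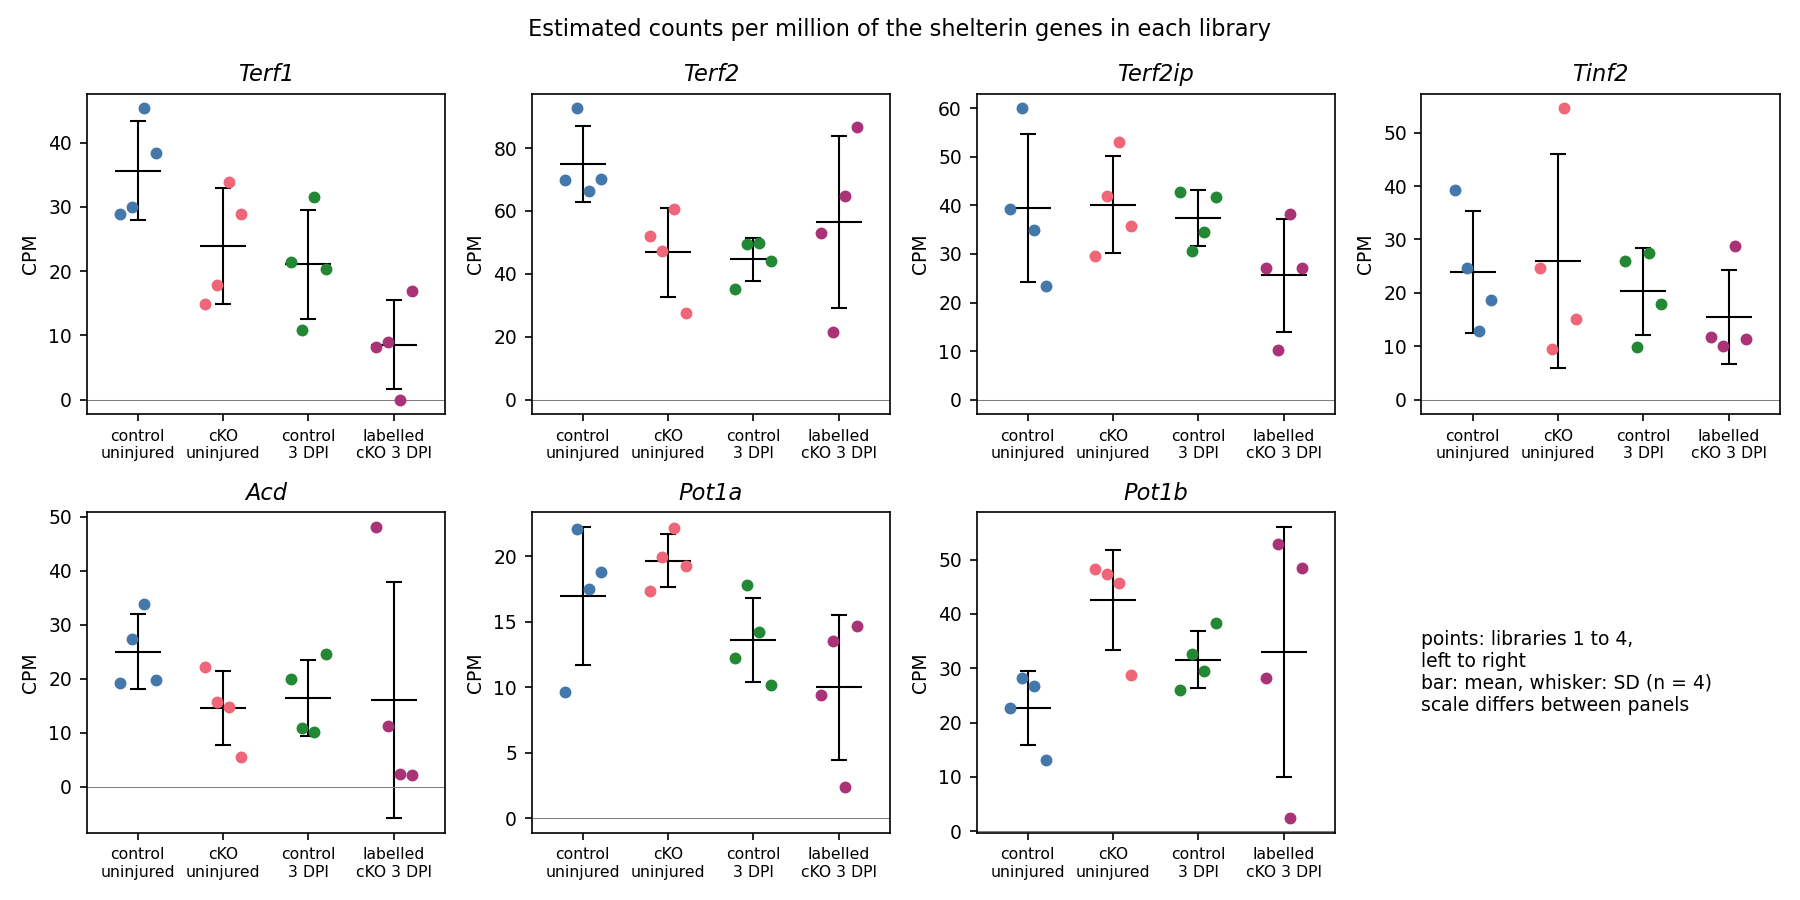
Estimated CPM after TMM scaling (y axis, one scale per panel) of each shelterin gene in each library (points, replicates 1 to 4 from left to right), with the mean (bar) and SD (whisker, n = 4) of each group. In uninjured MuSCs the points of Terf2 and Pot1b do not overlap between genotypes, while in the knockout-labelled 3 DPI libraries most genes spread widely.

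Terf2, the targeted gene, was lower in uninjured TRF2 MuSC-cKO than in control MuSCs in every library, but the difference was not called. Control libraries 1 to 4 held 69.9, 92.7, 66.3 and 70.3 CPM of Terf2, from 57 to 105 counts. The uninjured TRF2 MuSC-cKO libraries held 51.9, 47.3, 60.5 and 27.5 CPM, from 20 to 45 counts. The lowest control library was thus above the highest knockout library, and replicate 4 was the lowest of the knockout libraries. Mean Terf2 was 74.8 ± 12.1 CPM in control MuSCs against 46.8 ± 14 CPM in the knockout (SD, n = 4 each). The log2 fold change of Terf2 was -0.62 (SE 0.27, 95% interval -1.17 to -0.06, adjusted p = 0.199 by edgeR), which is 0.652 of the control level. An exact two-sided permutation test gave p = 0.0286, the smallest that 4 against 4 libraries allow. Terf2 RNA was present in every knockout library, and the lowest of these, with 20 counts, has an exact 95% Poisson interval of 16.4 to 41.4 CPM that covers counting error only. The gene counts are summed over the 8 annotated transcripts of Terf2 and so include any RNA that a recombined allele makes. Marker sums moved with genotype in the same libraries: those of MuSCs were lower in the knockout (2897 to 4039 against 5025 to 7112 CPM) and those of immune cells higher (147 to 205 against 95.6 to 135 CPM), both without overlap. The sum of 4 Schwann cell markers had a median of 274 CPM in the knockout and 199.8 CPM in control, with overlap, and that of 8 fibroadipogenic markers 671 and 501 CPM, with overlap. The part of these cells in the level of Terf2 was not tested, and in bulk RNA fewer cells of a type cannot be told apart from less RNA per cell.

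The separation of the genotypes by Terf2 depended on the scale. On the per-length scale, which has no TMM adjustment, control libraries held 59.6 to 85.2 and uninjured TRF2 MuSC-cKO libraries 29.8 to 67.9, so that the groups overlapped. Without TMM, using the library size alone, the log2 fold change of Terf2 was -0.43 and the median of all genes rose from 0.06 to 0.24. As a share of the summed per-length level of the 7 members in the same library, which needs no scaling between libraries, Terf2 made up 28.0%, 31.4%, 26.5% and 31.8% in control and 24.5%, 25.5%, 21.1% and 18% in TRF2 MuSC-cKO. These shares did not overlap, but Pot1b, whose values were higher in the knockout, is in their denominator. In uninjured MuSCs no sample-name prefix is shared between the genotypes, so that whatever the prefix stands for cannot be told apart from genotype.

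At 3 DPI, Terf2 was not lower in the knockout-labelled libraries. Control libraries 1 to 4 held 35.2, 49.4, 49.8 and 44.2 CPM, and the knockout-labelled ones 52.9, 21.4, 64.6 and 86.8 CPM. Replicate 2 lay below every control library and the other 3 lay above every control library, a direction against the label. For replicate 1 the margin was within counting error. Its exact 95% Poisson interval was 37.6 to 68.9 CPM, against 36.1 to 64.5 CPM for control replicate 3, the highest control library. The interval of knockout-labelled replicate 3 (46.6 to 80.9 CPM) also overlapped that of control replicate 3, while that of replicate 4 (66.5 to 105 CPM) did not. Mean Terf2 was 44.6 ± 6.78 CPM in control against 56.4 ± 27.3 CPM in the knockout-labelled libraries (SD, n = 4 each), a log2 fold change of 0.44 (SE 0.42, 95% interval -0.46 to 1.35, adjusted p = 0.755 by edgeR). Without replicate 3, the library with the fewest genes, it was 0.33 (adjusted p = 0.758). Replicates 1 and 2 of both genotypes share a sample-name prefix at 3 DPI, and with these 4 libraries alone the log2 fold change was -0.18 (adjusted p = 0.985), the opposite direction. Marker sums moved with this contrast too: MuSC markers summed to 1264 to 1880.5 CPM in control and 578 to 799 CPM in the knockout-labelled libraries, and immune markers to 5544 to 7308 CPM and 2246 to 6674 CPM. Their part in the level of Terf2 was not tested.

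With injury in control MuSCs, Terf2 was below every uninjured library in all 4 libraries at 3 DPI and missed the call by a narrow margin. The uninjured control libraries (66.3 to 92.7 CPM) lay above the 3 DPI control libraries (35.2 to 49.8 CPM). The log2 fold change was -0.75 (SE 0.25, 95% interval -1.25 to -0.25), with an adjusted p of 0.0201 by edgeR against the threshold of 0.02. Adjusted p was 0.00735 by limma, 0.0101 by DESeq2, 0.0132 with median-of-ratios scaling and 0.0120 on the length-scaled table, each of which called Terf2, while it was 0.0279 with no filter on low counts, 0.0334 with the replicate block, 0.0401 with at least 10 counts in every library, 0.0787 with library size alone and 0.177 with all 16 libraries in 1 fit, which did not. Leaving out uninjured control replicate 3 gave a call (-0.845, adjusted p = 0.00987). The other 7 single left-out libraries gave none (adjusted p of 0.0242 to 0.0776 by edgeR), and the log2 fold change without each of the 8 was -0.845 to -0.671. Within the single sample-name prefix that both control states share, uninjured replicate 4 held 70.3 CPM and 3 DPI replicates 3 and 4 held 49.8 and 44.2 CPM. Marker sums moved in the same libraries, each without overlap: from uninjured to 3 DPI control, MuSC markers went from 5025 to 7112 CPM down to 1264 to 1880.5 CPM and smooth muscle and pericyte markers from 689 to 1021 CPM down to 424 to 678 CPM. Immune markers went from 95.6 to 135 CPM up to 5544 to 7308 CPM, fibroadipogenic markers from 358 to 629.98 CPM up to 1492 to 2247 CPM, cycling markers from 151 to 188 CPM up to 779 to 1044 CPM, and myofibre markers from 126 to 155 CPM up to 162 to 245 CPM. Endothelial and Schwann cell markers overlapped. Their part in the difference of Terf2 was not tested. Across the knockout-labelled groups, Terf2 was at 27.5 to 60.5 CPM uninjured and 21.4 to 86.8 CPM at 3 DPI, a log2 fold change of 0.27 (SE 0.45, adjusted p = 0.853 by edgeR). Within the prefix shared by these states it was 27.5 CPM in uninjured replicate 4 and 64.6 and 86.8 CPM in 3 DPI replicates 3 and 4. The interaction was 1.14 (SE 0.50, 95% interval 0.11 to 2.17, unadjusted p = 0.0319, adjusted p = 0.824 by edgeR, and adjusted p = 0.0663 by limma), so the change with injury was not shown to differ between the genotypes.

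**Figure D3:**
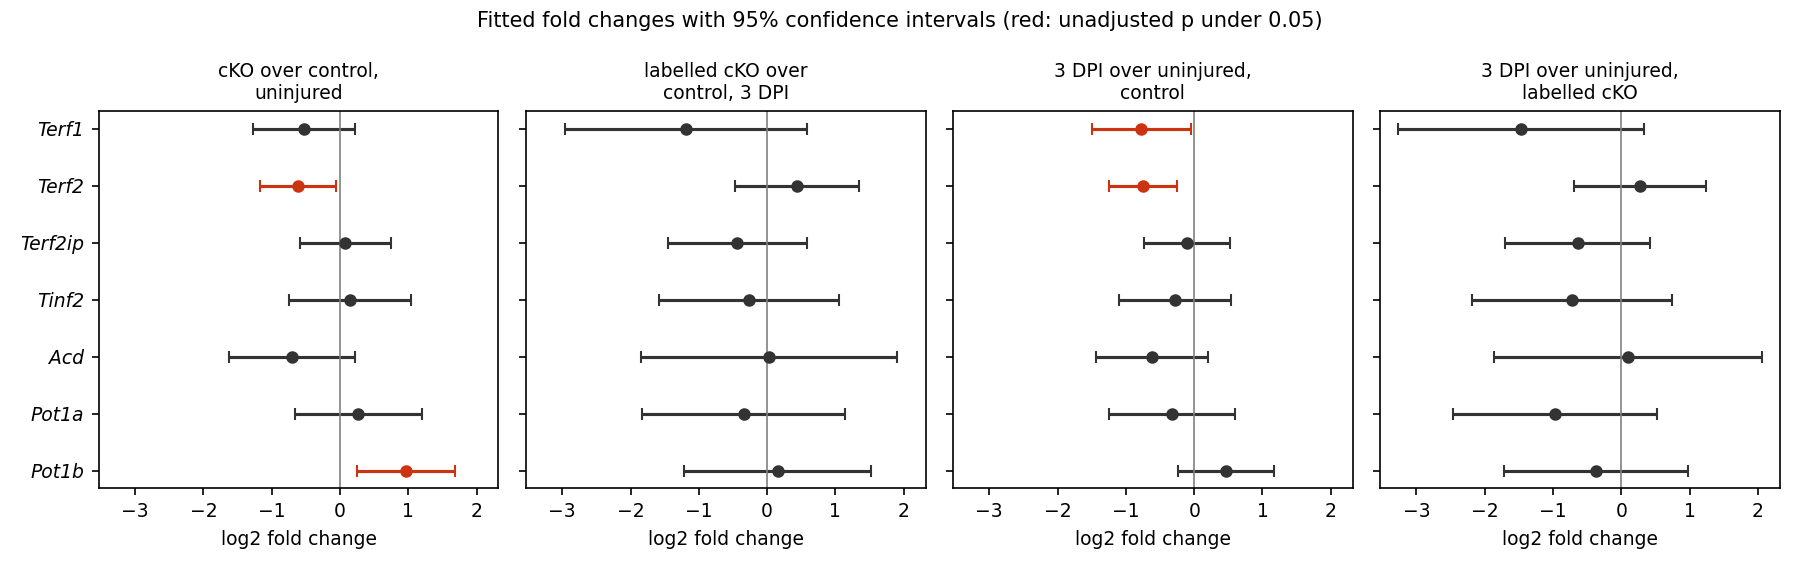
Log2 fold change (x axis) of each shelterin gene (y axis) in 4 comparisons, fitted with edgeR on 8 libraries each, with bars for 95% confidence intervals and red for an unadjusted p under 0.05. The red points are Terf2 (-0.62) and Pot1b (0.97) between uninjured genotypes and Terf2 (-0.75) and Terf1 (-0.77) with injury in control MuSCs.

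Terf1, which encodes the other double-strand repeat binder TRF1, had a fitted log2 fold change below 0 in all 4 comparisons of groups, none of them called. It lies on the plus strand of chromosome 1 from 15805646 to 15844052. Uninjured control libraries held 28.8, 30.0, 45.4 and 38.4 CPM of Terf1 and uninjured TRF2 MuSC-cKO libraries 14.8, 17.9, 33.9 and 28.8 CPM. The 3 DPI control libraries held 21.4, 10.9, 31.5 and 20.4 CPM, and the knockout-labelled ones 8.22, 9.02, 0 and 16.9 CPM. Ranges overlapped in each comparison, and the single 0 is in the library with the fewest genes, where 3 counts, the limit that a count of 0 allows, are 3.44 CPM and the upper bound of the exact 95% Poisson interval is 4.23 CPM. Between genotypes, Terf1 had a log2 fold change of -0.53 (SE 0.37, adjusted p = 0.443) uninjured and -1.19 (SE 0.82, adjusted p = 0.672) at 3 DPI by edgeR. Without 3 DPI replicate 3 of the knockout-labelled libraries, the latter was -0.80 (adjusted p = 0.586). With injury, Terf1 had a log2 fold change of -0.77 in control (SE 0.36, unadjusted p = 0.0361, adjusted p = 0.119 by edgeR) and -1.47 across the knockout-labelled groups (SE 0.84, adjusted p = 0.442 by edgeR).

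Terf2ip encodes RAP1, which reaches telomeres through TRF2, and its level was close to equal between uninjured genotypes. It lies on the plus strand of chromosome 8 from 112011398 to 112020528. Uninjured control libraries held 39.3, 60.0, 34.9 and 23.4 CPM and uninjured TRF2 MuSC-cKO libraries 29.7, 42.0, 53.1 and 35.7 CPM. The groups overlapped almost completely, with a log2 fold change of 0.08 (SE 0.33, 95% interval -0.58 to 0.74, adjusted p = 0.921 by edgeR), an interval that leaves room for a change of either sign. At 3 DPI, control libraries held 42.9, 30.6, 34.5 and 41.7 CPM and the knockout-labelled ones 27.0, 10.1, 38.3 and 27.1 CPM. Of the knockout-labelled libraries, 3 of 4 lay below the lowest control library, replicate 3 being the exception, and the log2 fold change was -0.44 (SE 0.47, adjusted p = 0.788 by edgeR). With injury it was -0.10 in control (SE 0.31, adjusted p = 0.871) and -0.64 across the knockout-labelled groups (SE 0.49, adjusted p = 0.609). The span of the annotated gene Gm6793, on the opposite strand, touches exons of Terf2ip. The strand setting of the quantification is not given in the sources used here.

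Tinf2 encodes TIN2, the bridge between the repeat binders and TPP1, and it varied more within groups than between them. It lies on the minus strand of chromosome 14 from 55674689 to 55681820. The span of the gene Gmpr2, on the opposite strand, touches exons of Tinf2. Uninjured control libraries held 39.3, 24.7, 12.8 and 18.7 CPM and uninjured TRF2 MuSC-cKO libraries 24.7, 9.46, 54.6 and 15.1 CPM. At 3 DPI, control libraries held 26.0, 9.88, 27.4 and 17.9 CPM and the knockout-labelled ones 11.7, 10.1, 28.7 and 11.3 CPM. Both knockout-labelled groups have a single high library, replicate 3 in each, and every pair of groups overlapped. The log2 fold change between genotypes was 0.15 (SE 0.45, adjusted p = 0.887) uninjured and -0.27 (SE 0.61, adjusted p = 0.910) at 3 DPI by edgeR, and without replicate 3 of the knockout-labelled group concerned -0.51 uninjured and -0.79 at 3 DPI. With injury it was -0.28 in control (SE 0.41, adjusted p = 0.702) and -0.72 across the knockout-labelled groups (SE 0.68, adjusted p = 0.701). The latter moved with single libraries: it was -0.085 without uninjured knockout replicate 3 and -1.19 without replicate 3 of the knockout-labelled 3 DPI libraries.

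Acd encodes TPP1, which links TIN2 to POT1 and recruits telomerase, and its values scattered widely in the knockout-labelled 3 DPI libraries. It lies on the minus strand of chromosome 8 from 105695860 to 105701102 and overlaps Carmil2 on the opposite strand. Uninjured control libraries held 19.2, 27.4, 33.8 and 19.7 CPM and uninjured TRF2 MuSC-cKO libraries 22.3, 15.8, 14.8 and 5.49 CPM. Knockout replicates 2 to 4 lay below every control library and replicate 1 did not. Acd had a log2 fold change of -0.70 (SE 0.46, 95% interval -1.63 to 0.23, adjusted p = 0.409 by edgeR). At 3 DPI, control libraries held 19.9, 10.9, 10.2 and 24.7 CPM and the knockout-labelled ones 48.2, 11.3, 2.39 and 2.26 CPM. The knockout-labelled 3 DPI libraries thus hold both the highest value of Acd in the data, from 41 counts, and its lowest ones, from 2 counts each. The log2 fold change of Acd at 3 DPI, 0.03 (SE 0.86, adjusted p = 0.996 by edgeR), rests on replicate 1, without which it was -1.5 (adjusted p = 0.496). Within the sample-name prefix that replicates 1 and 2 of both genotypes share at 3 DPI, it was 0.987. With injury it was -0.62 in control (SE 0.41, adjusted p = 0.313 by edgeR) and 0.10 across the knockout-labelled groups (SE 0.91, adjusted p = 0.980), the latter -1.42 without the same replicate 1.

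Pot1a and Pot1b encode the overhang-binding subunits, and of the pair only Pot1b separated the uninjured genotypes. Pot1a lies on the minus strand of chromosome 6 from 25743737 to 25809246, and Pot1b on the minus strand of chromosome 17 from 55651951 to 55712628. Their transcripts share few stretches: of the 5289 different 31-base words in the Pot1b transcripts, 11 (0.208%) also occur in Pot1a transcripts. Uninjured control libraries held 22.7, 28.3, 26.8 and 13.1 CPM of Pot1b and uninjured TRF2 MuSC-cKO libraries 48.2, 47.3, 45.8 and 28.8 CPM. Every knockout library was above every control library, although knockout replicate 4 (28.8 CPM) and control replicate 2 (28.3 CPM) nearly met. Mean Pot1b was 22.7 ± 6.81 CPM in control against 42.5 ± 9.19 CPM in the knockout (SD, n = 4 each). Pot1b had a log2 fold change of 0.97 (SE 0.35, 95% interval 0.25 to 1.68, unadjusted p = 0.00890, adjusted p = 0.105 by edgeR), a fold of 1.95, with an exact two-sided permutation p of 0.0286. It was above 0 in all 17 alternatives, from 0.744 to 1.14, with adjusted p-values of 0.0406 to 0.603, and none called it at the fixed threshold. The marker sums that separated the uninjured genotypes separate the same libraries as Pot1b, and their part in its level was not tested.

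With injury the fitted direction of Pot1b was not the same in control as across the knockout-labelled groups, though neither change was called. At 3 DPI, control libraries held 26.0, 32.6, 29.5 and 38.3 CPM of Pot1b and the knockout-labelled ones 28.2, 53.0, 2.39 and 48.5 CPM. Replicates 2 and 4 of the knockout-labelled libraries were above every control library, and replicate 3, with 2 counts, was far below. The log2 fold change between genotypes was 0.16 (SE 0.63, adjusted p = 0.953 by edgeR) and 0.52 without replicate 3 (adjusted p = 0.584). With injury it was 0.47 in control (SE 0.35, adjusted p = 0.393) and -0.37 across the knockout-labelled groups (SE 0.63, adjusted p = 0.857), the latter 0.0453 without replicate 3. The interaction of -0.72 (SE 0.71, adjusted p = 0.964 by edgeR) did not show a difference between genotypes.

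Pot1a had the lowest per-length median of the 7 members in all 4 groups (9.59 to 16.7). Uninjured control libraries held 9.61, 22.1, 17.5 and 18.7 CPM of Pot1a and uninjured TRF2 MuSC-cKO libraries 17.3, 20, 22.1 and 19.2 CPM, which overlapped. At 3 DPI, control libraries held 12.2, 17.8, 14.2 and 10.2 CPM and the knockout-labelled ones 9.40, 13.5, 2.39 and 14.7 CPM, which overlapped too. The log2 fold change between genotypes was 0.27 (SE 0.46, adjusted p = 0.784) uninjured and -0.35 (SE 0.69, adjusted p = 0.898) at 3 DPI by edgeR. With injury it was -0.33 in control (SE 0.46, adjusted p = 0.686). In the knockout-labelled groups all uninjured values (17.3 to 22.1 CPM) were above all 3 DPI values (2.39 to 14.7 CPM), a log2 fold change of -0.97 (SE 0.69, adjusted p = 0.575 by edgeR) that was -0.62 without replicate 3. The marker sums of MuSC, immune, fibroadipogenic, cycling and myofibre cells also did not overlap between these groups, as given below for Samhd1. Their part in the level of Pot1a was not tested.

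Leaving out replicate 3 of the knockout-labelled libraries called no member. Between genotypes at 3 DPI, Terf2ip then had a log2 fold change of -0.73, Acd 0.37 and Pot1a -0.05. With injury across the knockout-labelled groups, the values without it were 0.22 for Terf2, -1.03 for Terf1, -0.89 for Terf2ip, -1.19 for Tinf2 and 0.48 for Acd, and the interaction of Terf2 was 0.94 (adjusted p = 0.657 by edgeR). The interactions of the other members without it were -0.29 for Terf1, -0.82 for Terf2ip, -0.94 for Tinf2, 1.08 for Acd, -0.33 for Pot1a and -0.47 for Pot1b. In the same order, they were -0.58, -0.45, -0.35, 0.83, -0.53 and -0.72 with all 16 libraries. Fewer genes were detected in that library, but it held 64.6 CPM of Terf2, from 54 counts.

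The ratio of Pot1b to Pot1a on the per-length scale did not separate groups either. Its medians were 1.26 (0.629 to 2.12) in uninjured control, 1.99 (1.35 to 2.44) in uninjured TRF2 MuSC-cKO, 1.81 (1.65 to 3.40) in control at 3 DPI and 2.83 (0.899 to 3.46) in the knockout-labelled libraries at 3 DPI. Exact two-sided permutation tests of the log2 ratio gave p = 0.171 and 0.914 between genotypes, uninjured and at 3 DPI, and p = 0.114 and 0.657 with injury in control and across the knockout-labelled groups, unadjusted over these tests. The share of Pot1b in the summed per-length shelterin level was 4.32% to 7.47% in uninjured control and 11.1% to 17.8% in uninjured TRF2 MuSC-cKO, without overlap. The summed level itself was 187 to 271 in uninjured control and 166 to 322 in uninjured TRF2 MuSC-cKO, 140 to 202 in control at 3 DPI and 134 to 208 in the knockout-labelled libraries at 3 DPI.

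**Figure D4:**
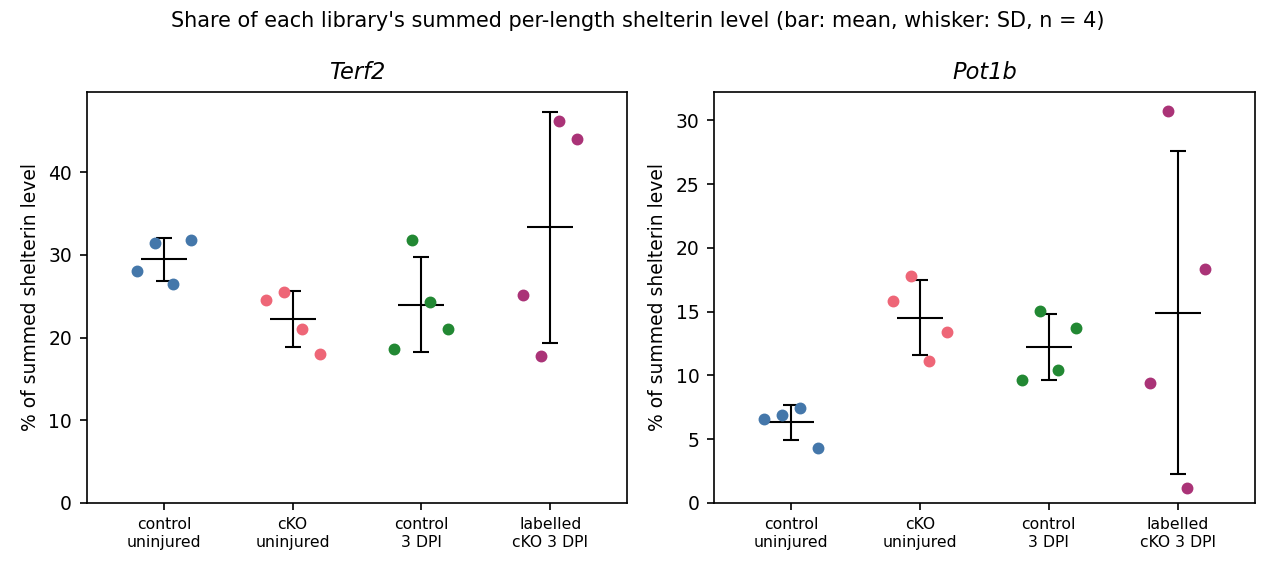
Percent of the summed per-length level of the 7 shelterin genes in the same library (y axis) that is Terf2 (left) and Pot1b (right) in each of the 4 groups, with points for libraries (replicates 1 to 4 from left to right), bars for means and whiskers for SD (n = 4). In uninjured MuSCs the share of Terf2 is lower (18% to 25.5% against 26.5% to 31.8%) and that of Pot1b higher (11.1% to 17.8% against 4.32% to 7.47%) in the knockout.

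The relation of the members' counts in both deposited tables follows the mean length of the transcripts that were quantified, so a shift to shorter or longer transcripts would change it. The log2 count over length-scaled count of Terf2, relative to the median gene, was -0.27 to -0.20 in uninjured control and -0.28 to -0.26 in uninjured TRF2 MuSC-cKO, which overlapped (exact permutation test, adjusted p = 0.400 over 14 tests). At 3 DPI it was -0.27 to -0.14 in control and -0.37 to -0.17 in the knockout-labelled libraries (exact permutation test, adjusted p = 0.444). Adjusted p-values of the 14 tests were 0.400 to 0.657, where libraries with under 5 counts of a gene were left out. Since 4 against 4 libraries cannot go below p = 0.0286 before adjustment in an exact permutation test, these tests could not pass and do not show that lengths were equal.

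Across the 16 libraries, whose points share group, depth and sorted cells, the log2 CPM of the members moved together only in part, which is given as a description. The highest Pearson r between members was 0.78 for Terf1 and Pot1a, followed by 0.71 for Pot1a and Pot1b, and Terf1, Pot1a and Pot1b all had their lowest value in replicate 3 of the knockout-labelled libraries. Terf2 had r = 0.48 with Terf2ip, 0.14 with Terf1 and -0.26 with Pot1b. Among the 16435 genes that averaged 3 or more on the log2 CPM scale, those most like Terf2 over 16 libraries were Gm14420 (r = 0.82), Edem3 (0.82), Cby1 (0.82), Ppm1b (0.81) and Gm4532 (0.80). Those least like it were Cysltr1 (-0.79), Vps37a (-0.79) and Cd163 (-0.78). In the 8 uninjured libraries alone, Shc2 (0.995), Mysm1 (0.985) and Ccar1 (0.979) were most like Terf2. These are the highest values in a search of many genes over 8 points, where high r is easily reached. Both genotypes are pooled in them, and mean Shc2 was 62.5 CPM in uninjured control and 24.6 CPM in uninjured TRF2 MuSC-cKO. The genes most like the other members were Glt8d1 for Terf1 (0.97, and 0.92 without that replicate 3), Eftud1 for Terf2ip (0.84), Fech for Tinf2 (0.85), Arsg for Acd (0.87), Rab11fip2 for Pot1a (0.92, and 0.72 without that library) and Pou4f1 for Pot1b (0.95, and 0.83 without it).

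Of the genes that work at telomeres, those of telomerase, of the CST complex that refills the overhang, of telomere-bound factors, of the damage response at unprotected ends and of the meiotic telomere complex (5 lists) were also not called between genotypes. Of 69 such genes listed, 68 were in the table and 58 were tested in uninjured MuSCs, where 0 were called in either direction (3.22% of all genes), 2 were higher and 2 lower at an unadjusted p under 0.05 (19.5% of all genes in either direction), and the median log2 fold change was 0.01 (0.06 over all genes). The gene of smallest p in each list was Zbtb48, which binds telomeric repeats (14.7 ± 9.43 against 36.2 ± 16.7 CPM, SD, n = 4 each, log2 fold change 1.37, adjusted p = 0.0739 by edgeR), the ubiquitin ligase gene Rnf8 (-0.92, adjusted p = 0.162), the telomerase subunit gene Nhp2 (-1.10, adjusted p = 0.18), the CST gene Ctc1 (-0.32, adjusted p = 0.585) and Terb1 (0.38, adjusted p = 0.765). At 3 DPI, 58 were tested, 0 were called, as among all genes (0%), and 1 was higher and 1 lower at an unadjusted p under 0.05 (9.36% of all genes in either direction). The lower one was Tnks2, a tankyrase gene, at 124 ± 8.37 CPM in control and 59.8 ± 22.8 CPM in the knockout-labelled libraries (SD, n = 4 each, log2 fold change -0.96, adjusted p = 0.452 by edgeR). The genes of smallest p in the other lists were Pinx1 (1.15, adjusted p = 0.557), Parp1 (-0.74, adjusted p = 0.599) and Prim2 (-0.48, adjusted p = 0.879).

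With injury in control MuSCs, 8 of 63 telomere genes tested were called, 3 of them higher and 5 lower, where 20.2% of all genes were called. Those higher were Samhd1, which trims nucleotide pools (30.4 ± 7.54 to 181 ± 49.2 CPM, SD, n = 4, log2 fold change 2.56, adjusted p = 1.21e-11 by edgeR), Parp1 (1.33, adjusted p = 9.51e-06) and the histone gene H2afx (1.29, adjusted p = 0.00991). Those lower were Smg6 (170 ± 16.0 to 70.7 ± 17.5 CPM, SD, n = 4, log2 fold change -1.29, adjusted p = 4.37e-06 by edgeR), Rif1 (-1.11, adjusted p = 0.000117), Rnf8 (-1.18, adjusted p = 0.0150), Atrx (-0.68, adjusted p = 0.00567) and Nr2c2 (-0.67, adjusted p = 0.0124). No CST gene was called, and Ten1 had the smallest p of that list (0.95, adjusted p = 0.241), while Terb1 of the meiotic list had -0.06 (adjusted p = 0.962). The marker sums of MuSC, immune, fibroadipogenic, cycling, myofibre and smooth muscle cells moved between the same libraries, as given for Terf2, and their part in these changes was not tested. Smg6 and Rif1 act in telomere maintenance and end protection, and Atrx is a chromatin remodeller at repeats. Across the knockout-labelled groups, 1 of 58 was called with injury, again Samhd1 (44.9 ± 8.40 to 128 ± 29.0 CPM, SD, n = 4, log2 fold change 1.5, adjusted p = 0.00701 by edgeR), where 4.04% of all genes were called. Marker sums also moved without overlap across these groups: MuSC markers went from 2897 to 4039 CPM down to 578 to 799 CPM, immune markers from 147 to 205 CPM up to 2246 to 6674 CPM, fibroadipogenic markers from 477 to 948 CPM up to 1145 to 2366 CPM, cycling markers from 157 to 236 CPM up to 469 to 824 CPM and myofibre markers from 132 to 211 CPM up to 224 to 390.0 CPM. Their part in the change of Samhd1 was not tested. The call of Samhd1 was lost with the replicate block, on the length-scaled table, and without knockout-labelled replicate 1 or any 1 of the 4 uninjured knockout libraries, each of which left 0 of these genes called. Without knockout-labelled replicate 3 the counts of telomere genes called were 0 between genotypes at 3 DPI, 1 across the knockout-labelled groups and 0 in the interaction, as with it. In lists with no call, the smallest p belonged to Trp53bp1 (-0.74, adjusted p = 0.141), Pinx1 (1.60, adjusted p = 0.222), Prim2 (-0.42, adjusted p = 0.894) and Terb1 (-0.11, adjusted p = 0.974). In the interaction, 0 of 65 were called (0.0178% of all genes), with 3 higher and 2 lower at an unadjusted p under 0.05 (5.74% of all genes in either direction). The smallest p of each list belonged to Tnks1bp1 (0.86, adjusted p = 0.730), Pinx1 (1.81, adjusted p = 0.806), Rif1 (0.88, adjusted p = 0.845), Terb2 (1.96, adjusted p = 0.889) and Ctc1 (0.56, adjusted p = 0.946).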

How the data were processed

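RNA of FACS-isolated MuSCs was made into libraries with the CORALL total RNA kit, which primes at random and marks strand. The kit adds unique molecular identifiers, whose use is not stated in the sources used here, so Poisson intervals cover counting error only. The authors trimmed, aligned and quantified the reads with Trim Galore 0.6.7, STAR 2.6.1d and Salmon 1.5.2 per the submitters' processing notes, on GRCm38, and deposited estimated counts per gene, not normalized, in 2 tables (as estimated, and scaled by transcript length). These expected counts were rounded here. All fits here were run in R 4.3.3 (DESeq2 1.42.0, limma 3.58.1, edgeR 4.0.16). In each comparison the 8 libraries concerned (16 for the interaction) were filtered with filterByExpr, scaled by TMM and tested with edgeR's robust quasi-likelihood test with Benjamini-Hochberg adjustment over all genes tested. CPM (counts relative to the library total) were scaled by TMM over all 16 libraries, and per-length levels are the length-scaled counts as CPM without TMM. Log2 CPM had a prior count of 2. The study's own tool, limma with a robust fit, was an alternative, as were DESeq2, other scalings and filters, the length-scaled table and leaving out each library. The procedure was tested on simulated counts. Groups and replicate numbers come from the sample titles, and the labels describe the replicates as biological. Single values were compared with exact two-sided permutation tests of group means.

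The members and gene lists were chosen with earlier results of these data known. The genes named are all 7 members, from each telomere list every gene called (up to 5 of smallest p, or the 1 of smallest p where none was called), and the genes most and least like a member. Gene positions are from GENCODE M21. Listed symbols absent from the table were matched through RefSeq synonyms (Stn1 as Obfc1, Shld1, Shld2, Terb1, Terb2 and Majin by older names), and Shld3 was not matched. No pair of replicates agreed within sampling noise (lowest chi-square over its expectation 2.97).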

Additional observations from a re-analysis of the deposited data

Results flagged for a closer look

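In 28 groups of 4 libraries (7 genes in 4 groups), 3 held a library whose gap to the next exceeded the 95% critical value of Dixon's test, where chance gives about 1 in 20. Terf2 was at 92.7 CPM in uninjured control replicate 2, above the other control libraries (66.3 to 70.3 CPM). Tinf2 was at 28.7 CPM in replicate 3 of the knockout-labelled 3 DPI libraries, the library with the fewest genes detected, above the others (10.1 to 11.7 CPM). Pot1b was at 28.8 CPM in uninjured TRF2 MuSC-cKO replicate 4, below the others (45.8 to 48.2 CPM), and the same library held the lowest Terf2 (27.5 CPM) and Acd (5.49 CPM) of its group.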

How the results depend on the processing

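No setting called a shelterin gene that it tested between genotypes or in the interaction. DESeq2 gave no adjusted p to 3, 7 and 5 of 7 members (uninjured, 3 DPI, interaction), and at least 10 counts in every library left 5, 1 and 1 of 7 to test. With injury in control MuSCs the count of members called was 1, Terf2, in place of 0 with limma, DESeq2, median-of-ratios scaling, the length-scaled table and at an adjusted p under 0.05 with no minimum fold, and 0 to 1 without single libraries. Terf2 then had log2 fold changes of -0.68 (limma), -0.801 (DESeq2), -0.80 (median-of-ratios) and -0.847 (length-scaled table), and -0.845 to -0.671 without single libraries. At 3 DPI the genotype effect on Terf2 reversed to -0.179 within the shared name prefix and was 0.135 to 0.70 without single libraries. Other telomere genes called with injury in control, 8 in the fit reported, were 5 with library size alone, 4 with at least 10 counts in every library, 4 with the length-scaled table, 3 with all 16 libraries in 1 fit and 5 to 7 without single libraries (5 without control 3 DPI replicate 2, 3 or 4). Across the knockout-labelled groups the 1 called, Samhd1, became 0 with the replicate block and with the length-scaled table, and 0 to 1 without single libraries. The causes were not tested.

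The other directions that reversed belonged to members with no call in any setting. Between uninjured genotypes they were Terf2ip (-0.0396 with 16 libraries in 1 fit, -0.138 to 0.339 without single libraries) and Tinf2 (-0.078 with limma, -0.0156 with the replicate block, -0.509 to 0.47 without single libraries). At 3 DPI they were Acd (-0.941 with limma, -0.0202 with no filter, -0.718 with the replicate block, -1.5 to 0.376 without single libraries) and Pot1b (-0.207 with the replicate block, -0.184 to 0.52 without single libraries). With injury in control they were Terf2ip (0.0566 with library size alone, 0.00423 with at least 10 counts, -0.316 to 0.143 without single libraries) and Tinf2 (-0.519 to 0.0578). Across the knockout-labelled groups they were Acd (-0.667 with limma, -0.636 with the replicate block, -1.42 to 0.501 without single libraries) and Pot1b (-0.657 to 0.0453). In the interaction they were Tinf2 (-0.939 to 0.162) and Acd (-0.248 with limma, -0.697 to 1.19).

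Replicate numbers did not pair the samples: deviations of same-numbered libraries correlated at -0.11 to 0.11. With the replicate block, Terf2 was -0.645 between uninjured genotypes, 0.318 at 3 DPI, -0.757 and 0.158 with injury in control and across the knockout-labelled groups, and 1.13 in the interaction, and no member's call changed. Counts of the members were 0 to 105 per library, which adds counting error to every value, and the part of depth in the spread between libraries was not tested.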
